A study of Mus musculus with 9 samples.

Results

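The genes described here are 42 components of transforming growth factor-beta (TGF-beta) and bone morphogenetic protein (BMP) signaling: ligands, proteins that hold or process them, extracellular antagonists, receptors, Smads, intracellular inhibitors and the Id genes. They were listed by gene name, and all 42 were measured, among 18193 genes with a probeset of a single symbol on Affymetrix mouse genome arrays. Their 92 probesets are part of the 45037 that were tested. RNA came from 3 lines of Balb/c-3T3 mouse fibroblasts. The first had been stably transfected with pMvSrc and expressed v-Src, the oncogenic tyrosine kinase carried by Rous sarcoma virus. The second had been stably transfected with pRc/CMV-STAT3C and expressed STAT3-C, a constitutively active form of the transcription factor STAT3, from a cytomegalovirus promoter. The control line was unmodified, so neither transfected line has an empty-vector partner here. All lines were grown in DMEM with bovine calf serum. Each line has 3 arrays, numbered 1, 5 and 6 for v-Src and 1, 2 and 3 for STAT3-C and for control cells, each made from RNA pooled from several dishes of 1 passage. The p-values therefore measure the spread between passages of 1 stable line, not between independently derived clones.

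TGF-beta and the activins bind type II receptors, which phosphorylate type I receptors and through them Smad2 and Smad3, while BMPs signal through Smad1 and Smad5. Both branches use Smad4 as the common partner in the nucleus, and Smad6, Smad7 and the Smurf ubiquitin ligases restrain them. In fibroblasts TGF-beta is known for raising matrix and contractile genes, and BMPs for raising the Id genes, which encode helix-loop-helix proteins without a DNA-binding region.

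Values are the authors' log2 expression from Robust Multichip Average (RMA). Arrays had a median of 6.27 to 6.39, a lower quartile of 5.07 to 5.16 and a highest value of 14.13 to 14.44. Arrays of 1 line correlated at 0.990 to 0.995 across probesets, transfected with control arrays at 0.943 to 0.948, and arrays of the transfected lines with each other at 0.971 to 0.977. Vim, the mesenchymal filament vimentin, was between 13.03 and 13.47 on all 9 arrays. Of 12 fibroblast markers, however, 6 were lower and 2 higher in v-Src cells, and 7 lower and 1 higher in STAT3-C cells, so the transfected lines showed the labelled cell type's markers only in part. On the log2 scale the summed level of these 12 was 15.62 to 15.95 in v-Src, 15.53 to 15.56 in STAT3-C and 15.94 to 16.05 in control arrays.

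In v-Src cells 7 of the 42 genes were higher than in control cells and 8 were lower, at an adjusted p under 0.05 from limma and a fold of at least 1.5. This is 16.7% and 19.0% of the members, where 9.54% of all genes were higher and 10.4% lower. In STAT3-C cells 8 were higher and 6 lower, which is 19.0% and 14.3%, where 11.9% of all genes were higher and 10.3% lower. The genes higher in both lines were Tgfb1, Bmp4, Id1, Id2 and Id3, and those lower in both were Grem1, Smad4, Smad5 and Id4. Of all genes 6.33% were higher in both lines and 6.74% lower in both. No member passed in opposite directions in the transfected lines (0.132% of all genes did). At an unadjusted p under 0.05 in limma, with no fold threshold, 1 member, Fstl1, had opposite signs in the 2 lines. By SAM, the study's test, 0 did at the 1.5-fold threshold, which Fstl1 did not reach with STAT3-C (0.30). The members had no common direction. Their median log2 fold change was 0.00 with v-Src and 0.03 with STAT3-C, against 0.02 and 0.04 over all genes, but the median size of the change was 0.34 and 0.33, against 0.21 and 0.25 over all genes. Members were not matched to all genes in expression level, and only 1 of the 42 lay below the lower quartile in any line. In these bulk samples fewer cells that express a gene and less of its RNA per cell cannot be told apart.

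**Figure D1:**
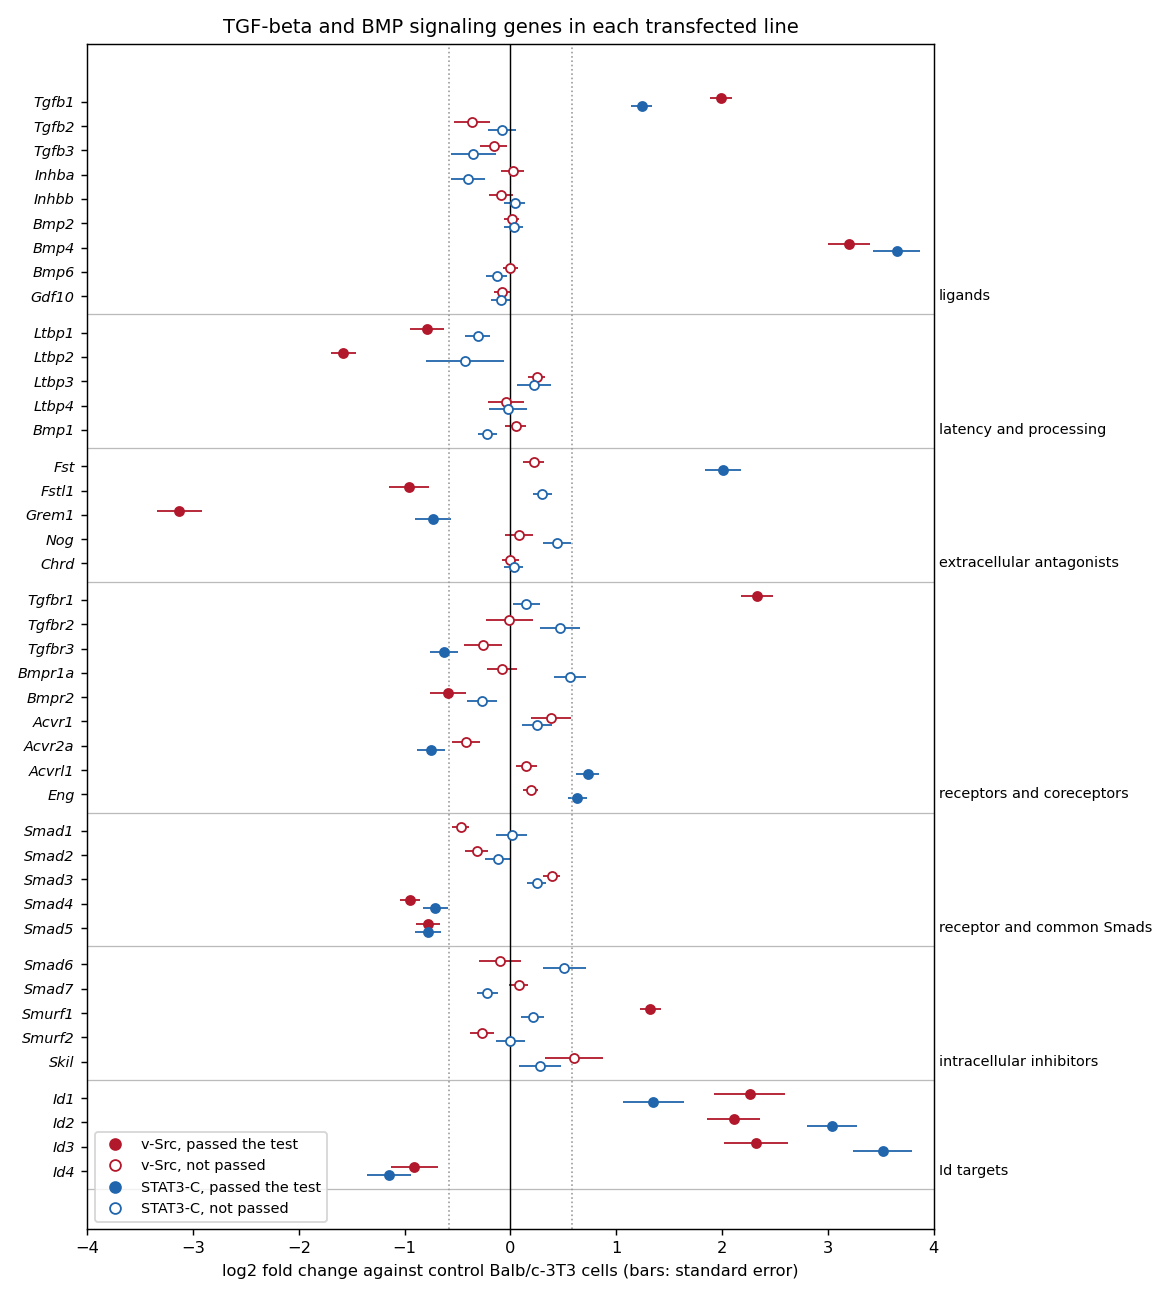
Log2 fold change against control cells (horizontal axis) of the 42 genes in v-Src (red) and STAT3-C cells (blue), grouped by role, with the limma standard error (3 arrays in each line) as bars and the 1.5-fold threshold as dotted lines. Filled points passed the test: Tgfb1, Bmp4, Id1, Id2 and Id3 lie to the right and Grem1, Smad4, Smad5 and Id4 to the left in both lines, while Tgfbr1 and Smurf1 are filled for v-Src alone and Fst for STAT3-C alone.

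Among the 9 ligands, Tgfb1 and Bmp4 rose in both transfected lines. Tgfb1 encodes TGF-beta1, the founding ligand of the family. Its log2 level was 9.42, 9.70 and 9.76 in v-Src cells and 9.04, 8.86 and 8.74 in STAT3-C cells, against 7.63, 7.67 and 7.61 in control cells. The 3 lines did not overlap, with v-Src arrays highest and control arrays lowest. Tgfb1 was 3.98-fold higher with v-Src (log2 fold change 1.99, standard error, SE, 0.10, limma adjusted p = 2.64e-05) and 2.37-fold higher with STAT3-C (1.24, SE 0.10, adjusted p = 7.36e-05). The study had listed Tgfb1 among genes chosen on these arrays, so its rise is not independent evidence. A second, dimmer Tgfb1 probeset (1445360_at) gave log2 fold changes of 0.47 and 0.05 and did not pass in either line.

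Bmp4, a ligand of the BMP branch, had the largest rise in both lines among the probesets that stood for the members. Its log2 level was 8.68, 8.68 and 8.68 in v-Src cells and 9.21, 9.36 and 8.80 in STAT3-C cells, against 5.82, 5.60 and 5.0 in control cells. All transfected arrays were far above the control arrays, and control array 3 lay below the lower quartile of all probesets. The gene was 9.20-fold higher with v-Src (log2 fold change 3.20, SE 0.20, limma adjusted p = 5.6e-05) and 12.5-fold higher with STAT3-C (3.65, SE 0.22, adjusted p = 2.03e-05). Because the control level was close to background, these folds depend on that level. The other 7 ligands, Tgfb2, Tgfb3, the activin subunits Inhba and Inhbb, Bmp2, Bmp6 and Gdf10, did not pass in any comparison by the probeset that stood for them. Bmp2 was at 3.76 to 3.85 in v-Src, 3.77 to 3.89 in STAT3-C and 3.70 to 3.83 in control arrays, below the lower quartile in all 3 lines, and was the only member so low throughout.

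The 250 bases before the annotated start of Bmp4 and of 4 other members that changed in both lines (Id2, Id3, Id4 and Grem1) are shown because these genes, of the same pathway, moved in different directions. Tgfb1 and Smad5 also changed in both lines and are not shown. Tgfb1 had no match to the SMAD motifs below, and Smad5 had both, in different promoters. The sequences are from RefSeq, build GRCm38.p6, and run 5′ to 3′ on the strand of the gene. Bmp4 lies at chr14:46390670-46390919 (minus strand), Id2 at chr12:25096093-25096342 (minus), Id3 at chr4:136143572-136143821 (plus), Id4 at chr13:48260866-48261115 (plus) and Grem1 at chr2:113758649-113758898 (minus). Capitals mark matches on either strand to CAGAC, a core SMAD-binding element, or GGCGCC, a GC-rich element of BMP Smads. The 2 motifs do not overlap in these windows.
Bmp4: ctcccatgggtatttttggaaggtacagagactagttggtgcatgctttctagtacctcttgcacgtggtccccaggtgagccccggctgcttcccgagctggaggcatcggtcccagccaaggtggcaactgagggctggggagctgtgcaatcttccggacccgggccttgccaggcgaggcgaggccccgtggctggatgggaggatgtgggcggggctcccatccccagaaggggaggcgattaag
Id2: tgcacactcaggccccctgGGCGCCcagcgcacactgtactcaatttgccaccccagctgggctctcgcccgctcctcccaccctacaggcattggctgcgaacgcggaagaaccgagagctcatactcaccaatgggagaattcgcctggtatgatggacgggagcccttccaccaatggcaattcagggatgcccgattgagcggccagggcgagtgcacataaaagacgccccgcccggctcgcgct
Id3: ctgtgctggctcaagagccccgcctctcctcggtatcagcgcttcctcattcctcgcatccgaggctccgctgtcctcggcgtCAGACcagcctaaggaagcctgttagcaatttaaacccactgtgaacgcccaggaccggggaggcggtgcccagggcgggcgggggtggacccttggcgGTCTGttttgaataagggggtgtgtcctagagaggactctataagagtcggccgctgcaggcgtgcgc
Id4: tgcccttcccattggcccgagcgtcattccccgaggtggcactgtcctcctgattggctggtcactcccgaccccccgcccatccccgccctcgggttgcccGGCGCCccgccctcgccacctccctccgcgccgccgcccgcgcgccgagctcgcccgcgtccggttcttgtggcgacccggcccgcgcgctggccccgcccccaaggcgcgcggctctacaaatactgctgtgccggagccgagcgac
Grem1: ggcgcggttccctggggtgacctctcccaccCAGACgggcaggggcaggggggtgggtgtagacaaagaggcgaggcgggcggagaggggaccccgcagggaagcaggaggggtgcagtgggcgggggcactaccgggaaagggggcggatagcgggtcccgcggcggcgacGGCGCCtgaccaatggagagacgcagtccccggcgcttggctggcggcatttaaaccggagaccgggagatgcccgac
Bmp4, which rose, had no match in this window. Id2 had GGCGCC at bases -231 to -226, counted back from the start, and Id4, which fell, had the same element at -148 to -143. Id3 had CAGAC at -167 to -163 and, on the other strand, at -68 to -64. Grem1 had CAGAC at -219 to -215 and GGCGCC at -78 to -73. A promoter was found for 30 of the 42 members, 36 promoters in all. CAGAC was in 44.4% of these 36, against 42.2% of all 32851 promoters, and GGCGCC in 30.6%, against 9.59%. Some promoters of the same gene overlap, so a site can count more than once. By gene, CAGAC was in 15 of the 30 and GGCGCC in 10. The member promoters were richer in G and C (median 67.4%, against 52.4% for all promoters). The STAT element TTCNNNGAA was in 0 of the 36 and in 7.02% of all promoters. The study used a looser STAT3 consensus and searched further upstream of the gene it examined. The 0 therefore does not show that members lack such sites, and the difference in G and C was not corrected for. A match is a stretch of letters and not a site that was measured.

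Of the 5 genes for latency and processing, 2 fell in v-Src cells and none passed in STAT3-C cells by limma or SAM. With STAT3-C 2 of the 5 differed at an unadjusted p under 0.05 in limma, but none reached the 1.5-fold change that a call needed. Ltbp2, a latent-TGF-beta-binding family protein of the matrix, was at 9.20, 9.32 and 9.24 in v-Src cells, 10.84, 10.96 and 9.42 in STAT3-C cells, and 11.09, 10.76 and 10.65 in control cells. All v-Src arrays were below all others, and STAT3-C array 3 stood apart from its line, near the v-Src level. Ltbp2 was 2.99 times lower with v-Src (log2 fold change -1.58, SE 0.12, limma adjusted p = 0.000142), and the STAT3-C difference of -0.43 did not pass (SE 0.37, adjusted p = 0.438). Ltbp1, which tethers latent TGF-beta to the matrix, fell on the log2 scale by 0.79 in v-Src cells (SE 0.16, adjusted p = 0.00859) and had -0.31 with STAT3-C (adjusted p = 0.0903). Dimmer Ltbp1 probesets, 1419786_at and 1447547_at, had -0.17 and -0.16 with v-Src and did not pass. The latter lay below the lower quartile in all 3 lines. Ltbp3, Ltbp4 and Bmp1, a protease that cleaves procollagen and chordin, did not pass against control.

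Of the 5 extracellular antagonists, Grem1 passed in both lines, Fstl1 with v-Src and Fst with STAT3-C. Grem1 encodes gremlin 1, which binds BMP2 and BMP4 and keeps them from their receptors. Its log2 level was 6.84, 6.94 and 7.47 in v-Src cells and 9.38, 9.34 and 9.73 in STAT3-C cells, against 10.55, 10.15 and 9.93 in control cells. The lines did not overlap, and the v-Src arrays were far below both others. Grem1 was 8.74 times lower with v-Src (log2 fold change -3.13, SE 0.21, limma adjusted p = 8.08e-05) and 1.66 times lower with STAT3-C (-0.73, SE 0.17, adjusted p = 0.0148). The STAT3-C call for Grem1 was lost without control array 1 (-0.56, under the fold threshold), without STAT3-C array 1 (-0.68, adjusted p = 0.067) and without STAT3-C array 2 (-0.66, adjusted p = 0.0561).

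Fst, which encodes the activin-binding protein follistatin, rose with STAT3-C alone by this test. It was at 8.03, 7.90 and 8.19 in v-Src cells and 9.85, 10.17 and 9.46 in STAT3-C cells, against 7.91, 7.80 and 7.75 in control cells. The STAT3-C arrays were all above the rest, and the v-Src and control arrays overlapped. Fst was 4.02-fold higher with STAT3-C (log2 fold change 2.01, SE 0.17, limma adjusted p = 8.81e-05), and its difference of 0.22 with v-Src did not pass (SE 0.10, adjusted p = 0.139).

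Fstl1, a secreted glycoprotein related to follistatin, was among the brightest members. It was at 11.22, 10.78 and 11.61 in v-Src cells and 12.40, 12.55 and 12.43 in STAT3-C cells, against 12.14, 12.17 and 12.18 in control cells. The v-Src arrays were lowest and the STAT3-C arrays highest, without overlap. Fstl1 fell on the log2 scale by 0.96 in v-Src cells (SE 0.19, limma adjusted p = 0.00888), and with STAT3-C it had 0.30 (SE 0.09, adjusted p = 0.0332), under the fold threshold. The BMP antagonists Nog and Chrd did not pass: Nog had 0.08 with v-Src and 0.44 with STAT3-C, and Chrd 0.00 and 0.03.

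Of the 9 receptors and coreceptors, Tgfbr1 was the only one with a change of 2-fold or more. It encodes the type I TGF-beta receptor ALK5. Its log2 level was 11.24, 10.89 and 11.47 in v-Src cells and 9.16, 9.17 and 8.76 in STAT3-C cells, against 8.82, 8.79 and 9.02 in control cells. The v-Src arrays were all above the rest, and the STAT3-C and control arrays overlapped. Tgfbr1 was 5.01-fold higher with v-Src (log2 fold change 2.33, SE 0.15, limma adjusted p = 7.04e-05), while STAT3-C had 0.15 (SE 0.13, adjusted p = 0.442). Both other Tgfbr1 probesets passed with v-Src too, with log2 fold changes of 3.86 and 3.53, and not with STAT3-C (0.53 and 0.42). The 0.53, on 1420893_a_at, missed the fold threshold alone (limma adjusted p = 0.00831). On that probeset the STAT3-C arrays lay above the control arrays without overlap. Its partner Tgfbr2, the type II TGF-beta receptor, had -0.01 with v-Src and 0.47 with STAT3-C and did not pass by the probeset that stood for it.

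The other receptor changes were under 2-fold. Bmpr2, the type II BMP receptor, fell on the log2 scale by 0.59 in v-Src cells (SE 0.17, limma adjusted p = 0.0391), just past the fold threshold, and had -0.27 with STAT3-C. Its call was lost without control array 1 (-0.50), control array 3 (-0.53), v-Src array 1 (-0.49) or v-Src array 5 (-0.54). The other Bmpr2 probesets had 0.14 and 0.07 with v-Src and did not pass. In STAT3-C cells Acvr2a, a type II activin receptor, fell by 0.75 (SE 0.13, adjusted p = 0.00295), and Tgfbr3, the coreceptor betaglycan, fell by 0.63 (SE 0.13, adjusted p = 0.00731). They had -0.42 and -0.26 with v-Src. The other probesets of Acvr2a (1451004_at, -0.07) and Tgfbr3 (1425620_at, -0.28) did not pass with STAT3-C. Acvrl1, the type I receptor ALK1, rose by 0.73 (SE 0.11, adjusted p = 0.0017) and Eng, the coreceptor endoglin, by 0.63 (SE 0.09, adjusted p = 0.00153) with STAT3-C, and had 0.15 and 0.19 with v-Src. A dimmer Acvrl1 probeset, 1435825_at, went the other way without passing (-0.21 with STAT3-C, -0.37 with v-Src). It lay below the lower quartile in v-Src cells. The call of Tgfbr3 was lost without control array 3 (-0.56), STAT3-C array 1 (-0.58) or STAT3-C array 3 (-0.58), and that of Eng without STAT3-C array 1 (0.58), all just under the fold threshold. Acvrl1 and Eng are known above all from endothelial cells. Of 9 endothelial markers 0 passed in either line against control by limma or SAM, and none reached the 1.5-fold change that either call needed. At an unadjusted p under 0.05 in limma 0 of the 9 differed with v-Src and 1 with STAT3-C. In each line 4 of the 9 lay below the lower quartile, with Pecam1 at 4.44 to 4.80 in v-Src, 4.73 to 5.05 in STAT3-C and 4.48 to 4.63 in control arrays. Their summed level on the log2 scale was 8.917 to 8.997 in v-Src, 8.814 to 8.999 in STAT3-C and 8.713 to 8.872 in control arrays. By the probesets that stood for them, Acvr1 and Bmpr1a did not pass against control.

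Of the 5 receptor-activated and common Smads, Smad4 and Smad5 fell in both lines. Smad4 was at 9.49, 9.36 and 9.65 in v-Src cells and 9.80, 9.91 and 9.49 in STAT3-C cells, against 10.42, 10.47 and 10.45 in control cells. All transfected arrays lay below the control arrays, and the transfected lines overlapped. Smad4 fell on the log2 scale by 0.95 in v-Src cells (SE 0.09, limma adjusted p = 0.000355) and by 0.71 with STAT3-C (SE 0.12, adjusted p = 0.00296). Smad5, a mediator of BMP signals, fell by 0.78 in each line (SE 0.11 with v-Src and 0.12 with STAT3-C, adjusted p = 0.00171 and 0.0021). It was at 7.73 to 7.94 in v-Src and 7.67 to 8.0 in STAT3-C arrays, below the 8.45 to 8.74 of control arrays. Smad1 (-0.47 with v-Src, 0.01 with STAT3-C), Smad2 (-0.32, -0.12) and Smad3 (0.39, 0.25) did not pass by the probeset that stood for them.

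Of the 5 intracellular inhibitors Smurf1, a ubiquitin ligase that marks BMP Smads for degradation, was the 1 that passed against control by the probeset that stood for each gene. It was at 9.98, 10.03 and 10.21 in v-Src cells and 9.01, 9.07 and 8.83 in STAT3-C cells, against 8.76, 8.88 and 8.63 in control cells. The v-Src arrays stood above both other lines, which overlapped. Smurf1 was 2.50-fold higher with v-Src (log2 fold change 1.32, SE 0.10, limma adjusted p = 0.000131) and had 0.21 with STAT3-C (SE 0.11, adjusted p = 0.184). Its relative Smurf2 had -0.27 and 0.00. The inhibitory Smads gave -0.10 with v-Src and 0.51 with STAT3-C for Smad6, and 0.08 and -0.22 for Smad7, and the Smad corepressor Skil gave 0.60 and 0.28.

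All 4 Id genes passed in both lines: Id1, Id2 and Id3 rose and Id4 fell. Id1 was at 10.80, 10.15 and 9.87 in v-Src cells and 9.53, 9.53 and 9.01 in STAT3-C cells, against 8.21, 7.33 and 8.49 in control cells. It was highest on the v-Src arrays and lowest on the control arrays, without overlap. Id1 was 4.80-fold higher with v-Src (log2 fold change 2.26, SE 0.34, limma adjusted p = 0.00266) and 2.55-fold higher with STAT3-C (1.35, SE 0.29, adjusted p = 0.00869).

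Id2 and Id3 were ordered otherwise, with the STAT3-C arrays highest. Id2 was at 9.44, 9.04 and 8.71 in v-Src cells and 10.17, 10.23 and 9.58 in STAT3-C cells, against 7.35, 6.51 and 7.0 in control cells. Id3 was at 10.96, 10.21 and 10.23 in v-Src cells and 11.86, 11.94 and 11.20 in STAT3-C cells, against 8.60, 7.57 and 8.27 in control cells. Neither gene overlapped between any 2 lines. Id2 was 4.33-fold higher with v-Src (log2 fold change 2.11, SE 0.25, limma adjusted p = 0.000863) and 8.24-fold higher with STAT3-C (3.04, SE 0.24, adjusted p = 6.15e-05). Id3 was 5.0-fold higher with v-Src (2.32, SE 0.30, adjusted p = 0.00134) and 11.5-fold higher with STAT3-C (3.52, SE 0.28, adjusted p = 6.85e-05).

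Id4 went the other way. It was at 6.85, 6.76 and 6.55 in v-Src cells and 6.36, 6.54 and 6.53 in STAT3-C cells, against 7.82, 7.10 and 7.95 in control cells. The transfected arrays lay below all control arrays, and control array 2 was nearest to them. Id4 fell on the log2 scale by 0.91 in v-Src cells (SE 0.22, limma adjusted p = 0.0196) and by 1.15 with STAT3-C (SE 0.21, adjusted p = 0.00392), and the other Id4 probesets had larger changes. On 1423259_at they were -2.32 with v-Src and -2.85 with STAT3-C. The probeset 1450928_at lay below the lower quartile in both transfected lines, so its changes there, -2.0 with v-Src and -1.83 with STAT3-C, are lower bounds on the size of the fall. The v-Src call by the probeset that stood for Id4 was lost without control array 1 (-0.81, adjusted p = 0.0728), control array 3 (-0.74, 0.065), v-Src array 5 (-0.93, 0.052) or v-Src array 6 (-0.83, 0.072).

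The 3 raised Id genes also deviated together within a line. On control array 2, Id1, Id2 and Id3 lay 0.68, 0.44 and 0.58 below their control means on the log2 scale. On v-Src array 1 they lay 0.53, 0.37 and 0.50 above the v-Src means, and on STAT3-C array 3 they lay 0.35, 0.41 and 0.47 below the STAT3-C means. These shifts were smaller than the rises of the 3 genes against control, all of which passed whichever array was left out.

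**Figure D2:**
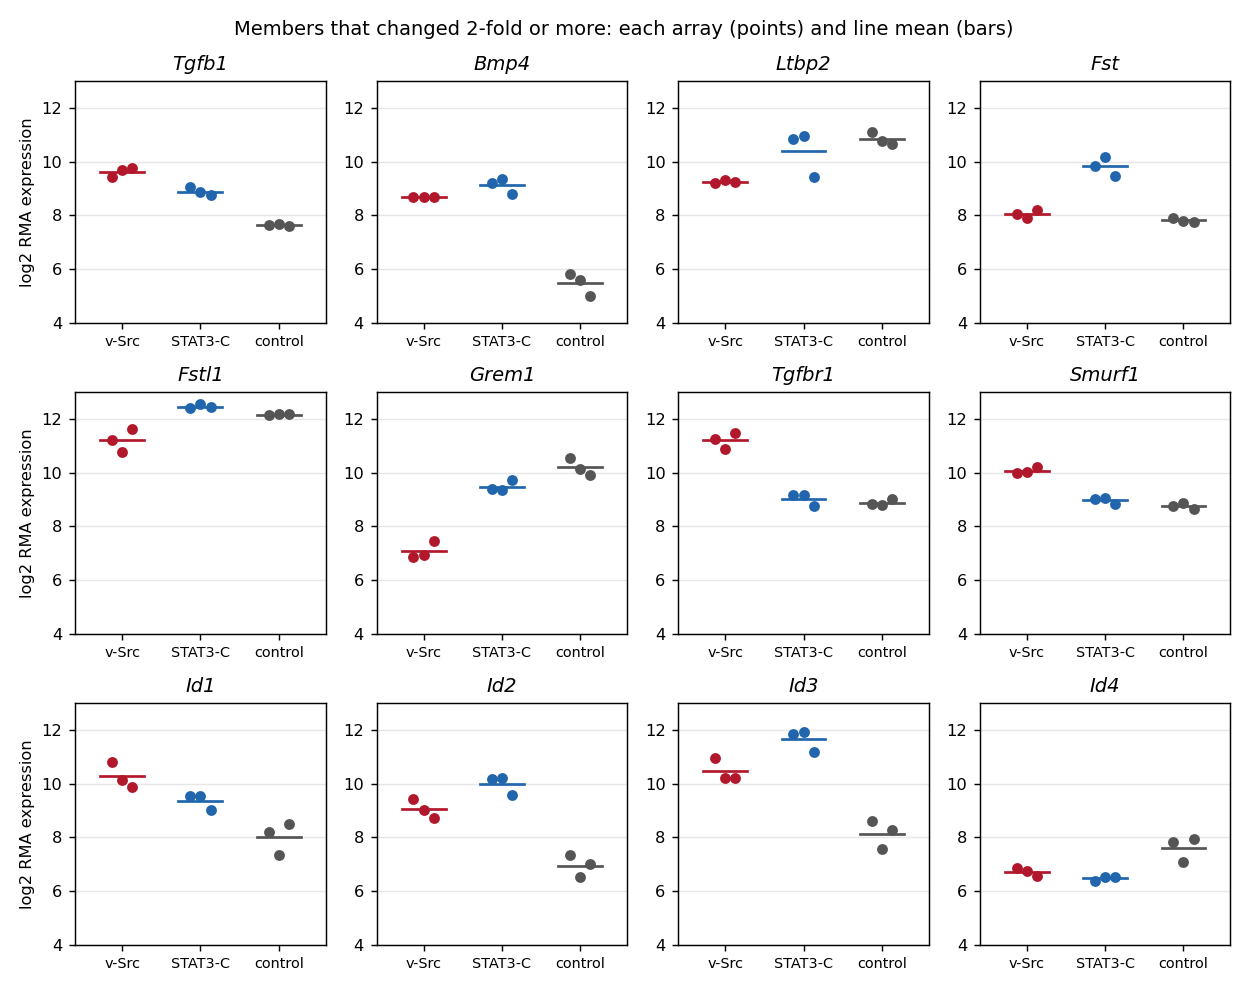
Log2 RMA expression (vertical axis) of the 12 members that changed 2-fold or more in at least 1 comparison, with a point for each of the 3 v-Src (red), STAT3-C (blue) and control arrays (grey) and the line mean as a bar. Bmp4, Id1, Id2 and Id3 are higher on every transfected array than on every control array; Tgfbr1 and Smurf1 are raised on v-Src arrays, Fst on STAT3-C arrays, and 1 STAT3-C array of Ltbp2 lies near the v-Src level at 9.42.

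The direct comparison of the transfected lines uses no control array. In it v-Src cells had 4 members higher (Tgfb1, Tgfbr1, Smurf1 and Id1) and 8 lower (Fst, Fstl1, Grem1, Bmpr1a, Acvrl1, Smad6, Id2 and Id3). This is 9.52% and 19.0% of the 42, where 4.84% of all genes were higher and 6.83% lower. The count of lower members depended on single arrays: it was 3 without STAT3-C array 2, 4 without v-Src array 6, 5 without STAT3-C array 1 or v-Src array 5, and 11 without STAT3-C array 3. No share over all genes was computed for the fits that leave out an array. With every array kept, the median log2 fold change was -0.08, against -0.03 over all genes.

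Tgfbr1 was 4.51-fold higher in v-Src cells (log2 fold change 2.17, SE 0.17, limma adjusted p = 0.000543), and Smurf1 had 1.11 (SE 0.10, adjusted p = 0.000773). Tgfb1 was higher by 0.75 (SE 0.12, adjusted p = 0.00547). Grem1 was 5.28 times lower (-2.40, SE 0.18, adjusted p = 0.000477), Fst had -1.79 (SE 0.18, adjusted p = 0.000967) and Fstl1 -1.26 (SE 0.19, adjusted p = 0.00452). Among the antagonists, then, the 3 that passed in any comparison were all lower in the v-Src line. These 6 genes kept their call whichever array was left out.

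The Id genes divided in this comparison. Id1 was higher in the v-Src line (0.91, SE 0.25, limma adjusted p = 0.0401), while Id2 (-0.93, SE 0.23, adjusted p = 0.0269) and Id3 (-1.20, SE 0.26, adjusted p = 0.0177) were lower, and Id4 did not pass (0.24, adjusted p = 0.142). Over the fits that each leave out 1 array the adjusted p of Id1 ran between 0.0356 and 0.109, of Id2 between 0.0157 and 0.107 and of Id3 between 0.0123 and 0.0807, while the sign of each stayed. Id1 kept its call only without v-Src array 6, and its difference was smallest without v-Src array 1 (0.65). Id2 and Id3 lost theirs without STAT3-C array 1 (-0.84 and -1.10), STAT3-C array 2 (-0.81 and -1.06), v-Src array 5 (-0.92 and -1.07) or v-Src array 6 (-0.75 and -1.08).

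Bmpr1a (-0.64), Smad6 (-0.61) and Acvrl1 (-0.59) were lower by about the fold threshold, with limma adjusted p = 0.0138, 0.00996 and 0.00588, and each lost its call without STAT3-C array 2 (-0.53, -0.53 and -0.52). Smad6 and Acvrl1 also lost it without v-Src array 6 (-0.53 for each), and Bmpr1a without STAT3-C array 1 (-0.65, adjusted p = 0.055), v-Src array 1 (-0.62, 0.055) or v-Src array 5 (-0.57). Eng was lower by a smaller amount (-0.43, adjusted p = 0.00835) and did not reach the fold threshold. Bmp4 and Ltbp2 did not pass, with -0.45 (SE 0.14, adjusted p = 0.0639) and -1.15 (SE 0.37, adjusted p = 0.0683). Both rested on STAT3-C array 3: without it Bmp4 had -0.61 (adjusted p = 0.00598) and Ltbp2 -1.65 (adjusted p = 0.000793), and both passed. With every array kept, Ltbp2 also passed by SAM, in limma with all 9 arrays in 1 fit (adjusted p = 0.0355) and among probesets above the median level (0.0494). The members that passed in 1 line alone were thus not all shown to differ between lines. Of the 6 called with v-Src only, Fstl1, Tgfbr1 and Smurf1 passed in the direct comparison and Ltbp1, Ltbp2 and Bmpr2 did not, in the fit on 6 arrays. Of the 5 called with STAT3-C only, Fst and Acvrl1 passed and Tgfbr3, Acvr2a and Eng did not.

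**Figure D3:**
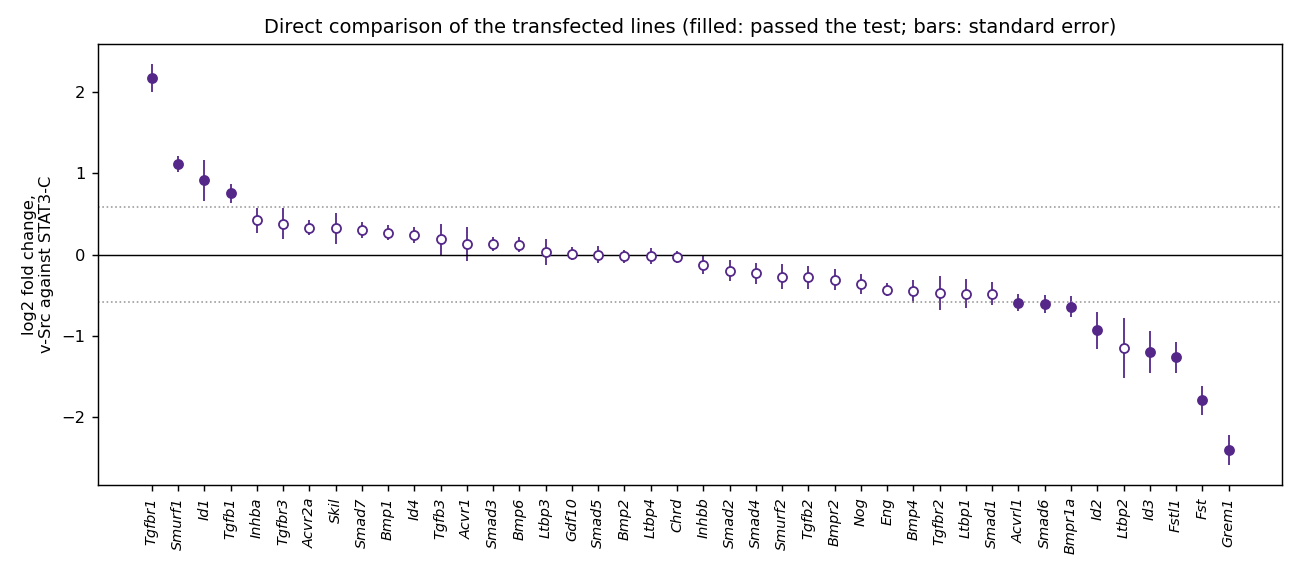
Log2 fold change of v-Src against STAT3-C cells (vertical axis) for the 42 genes in descending order, with the limma standard error (3 arrays in each line) as bars, the 1.5-fold threshold as dotted lines and filled points for genes that passed. Tgfbr1 is highest at 2.17 and Grem1 lowest at -2.40, and Ltbp2 at -1.15 is open between filled points, with a standard error of 0.37.

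Of the 42 genes 13 have 1 probeset and 29 have several, at most 6. Among those 29, probesets of a gene differed in their call for 12 genes in v-Src cells, 17 in STAT3-C cells and 7 in the direct comparison. No gene had probesets called in opposite directions against control, and 1, Bmpr1a, did in the direct comparison: the probeset that stood for it had -0.64, and 1445413_at had 0.70 (limma adjusted p = 0.016). The array annotation gives these probesets the same symbol, and which transcripts each one reads was not examined.

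For several genes another probeset passed where the one that stood for the gene did not. Inhbb, the activin beta-B subunit, had -0.09 with v-Src and 0.04 with STAT3-C by 1426859_at, while 1426858_at fell by 2.12 and 2.07. On that probeset the arrays read 5.36, 5.15 and 5.66 in v-Src cells and 5.56, 5.60 and 5.18 in STAT3-C cells, against 7.49, 7.38 and 7.68 in control cells, with no overlap. Both dimmer probesets of Smad3, the Smad of TGF-beta and activin signals, rose in both lines, by 0.73 and 1.05 with v-Src and by 0.62 and 0.83 with STAT3-C. Those of Smad1 fell with STAT3-C by 0.86 and 0.95, and for Smad2 1442062_at fell by 0.63 in v-Src cells and by 0.64 in STAT3-C cells. For Tgfbr2 1425444_a_at rose by 0.86 and 0.96. The second probeset of Skil, 1422054_a_at, rose by 0.72 in v-Src cells and by 0.60 in STAT3-C cells, and that of Smad7, 1443771_x_at, by 0.88 in STAT3-C cells. Acvr1 rose by 0.63 with v-Src on 1416786_at. Bmpr1a rose by 0.90 with v-Src on 1445413_at and by 0.66 with STAT3-C on 1425494_s_at. In the direct comparison Ltbp3 passed on 1438312_s_at (-0.95, limma adjusted p = 0.00268), which had -0.39 with v-Src and 0.56 with STAT3-C and did not pass against control. Smad7 on 1443771_x_at (-0.91) and Smad4 on 1422486_a_at (-0.70) passed in that comparison too.

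Smurf1 rose on both probesets with v-Src (1.32 and 1.67), although 1428396_at also rose by 0.68 with STAT3-C. The second probesets of Fst (0.68 with STAT3-C, -0.73 in the direct comparison) and Fstl1 (-1.15 with v-Src, -1.21 in the direct comparison) had the direction of the first. Id2 rose on a second probeset, 1435176_a_at, by 2.40 in v-Src cells and by 3.65 in STAT3-C cells. On 1453596_at it had 0.41 and 0.32, but that probeset lay below the lower quartile in all 3 lines and cannot show whether Id2 rose. Smad4 fell on all 3 probesets with v-Src (-0.95, -0.81 and -0.87) and on 2 with STAT3-C, where 1422486_a_at had -0.16, and Smad5 fell on 1 of 3. With the mean of all probesets standing for a gene, Smad5 no longer passed (-0.22 with v-Src, -0.34 with STAT3-C), Smad4 fell short of the fold threshold with STAT3-C (-0.56), and Tgfb1 fell short of it in the direct comparison (0.58). Ltbp1 (-0.37) and Bmpr2 (-0.13) did not pass with v-Src by that mean, nor did Acvrl1 (0.26), Eng (0.50), Acvr2a (-0.41) and Tgfbr3 (-0.45) with STAT3-C, while Inhbb passed with v-Src (-1.11) and STAT3-C (-1.01) and Smad3 (0.72) and Skil (0.66) passed with v-Src and Smad1 (-0.60) with STAT3-C. In the direct comparison Id2 (-0.70, adjusted p = 0.0573), Acvrl1 (-0.37) and Bmpr1a (0.11) were not called by that mean. The means of Id2 and Ltbp1 include probesets below the lower quartile in all 3 lines, 1453596_at and 1447547_at.

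**Figure D4:**
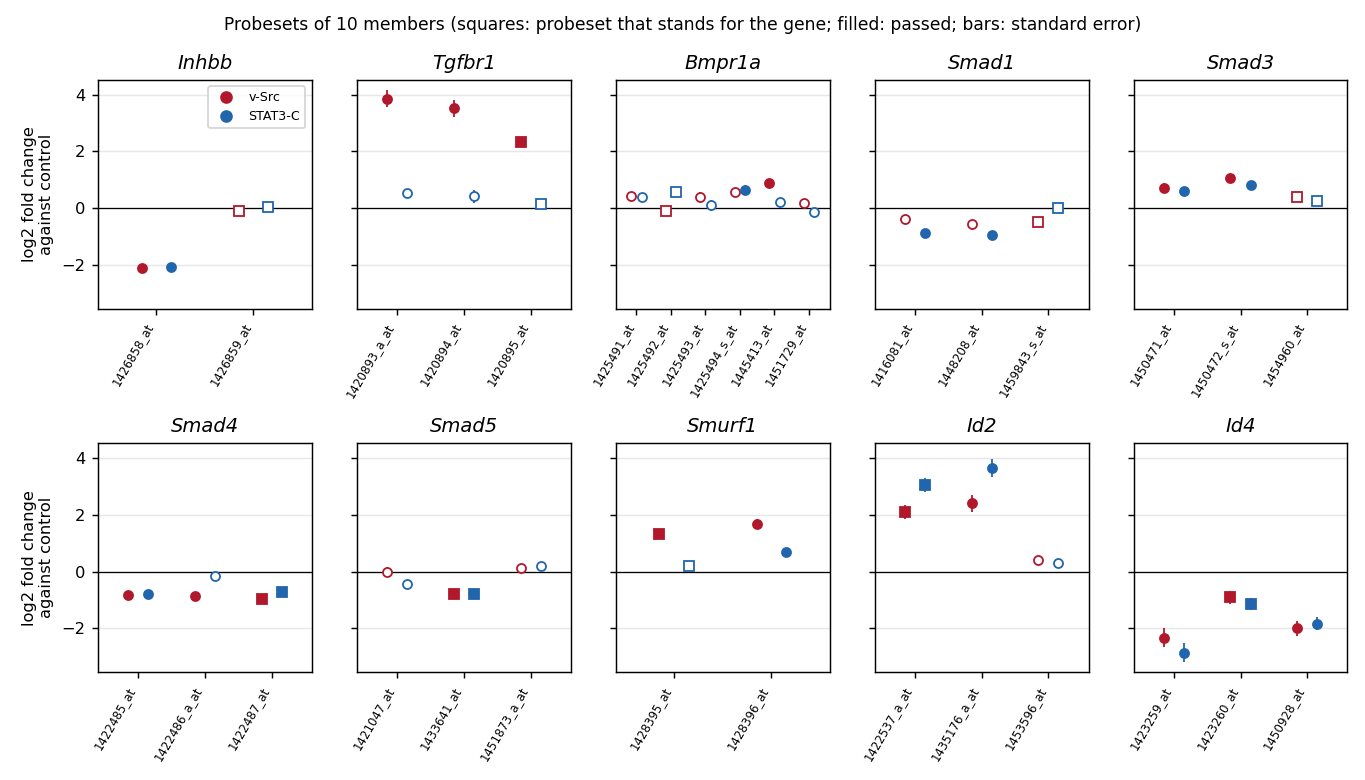
Log2 fold change against control (vertical axis) of each probeset of 10 members in v-Src (red) and STAT3-C cells (blue), with the standard error from limma as bars, squares for the probeset that stands for the gene and filled marks for probesets that passed. The 10 genes were chosen after their values were seen: the 3 Tgfbr1 probesets are filled for v-Src alone, all Id4 probesets lie below 0, and Inhbb, Smad3 and Smad5 have probesets that pass beside ones that do not.

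Genes around the 42 were counted from lists of the same pathways. The counts of these lists are to be read beside the shares over all genes. With v-Src 9.54% of all genes were higher and 10.4% lower, and with STAT3-C 11.9% and 10.3%. Of 14 other ligands, v-Src cells had 2 higher and 1 lower and STAT3-C cells 3 higher and none lower. Inha, the inhibin alpha subunit, rose by 0.97 with v-Src (SE 0.09, limma adjusted p = 0.000378) and by 0.71 with STAT3-C (SE 0.11, adjusted p = 0.00148). Bmp5 rose by 0.60 in v-Src cells and by 0.95 in STAT3-C cells. The 1 called lower with v-Src was Lefty2, an inhibitor of Nodal signals, which lay below the lower quartile in all 3 lines, so no fold is given. Of 10 other receptors and coreceptors v-Src cells had 1 higher and 1 lower, and STAT3-C cells 1 higher and 2 lower: the type I activin receptor Acvr1b rose by 1.35 with v-Src and by 1.27 with STAT3-C, and the BMP coreceptors Rgma and Rgmb fell, Rgma by 1.34 in v-Src cells and by 1.18 in STAT3-C cells, and Rgmb by 1.28 in STAT3-C cells.

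Among 20 other extracellular modulators v-Src cells had 2 higher and 3 lower, and STAT3-C cells 2 higher and 4 lower. Itgb8, the integrin subunit that with alpha-v releases active TGF-beta from its latent form, was at 4.05 to 4.29 in control arrays, below the lower quartile, and rose by at least 3.01 on the log2 scale with v-Src (limma adjusted p = 3.15e-05) and at least 3.91 with STAT3-C (adjusted p = 3.91e-05). Thbs1, thrombospondin 1, another activator of latent TGF-beta, fell by 2.44 in v-Src cells and by 3.00 in STAT3-C cells (adjusted p = 0.000301 and 2.33e-05). Of 19 other intracellular regulators v-Src cells had 4 higher and 4 lower, and STAT3-C cells 2 higher and 3 lower. The corepressor Ski fell in both (-0.96 with v-Src, -1.40 with STAT3-C), the ubiquitin ligase Nedd4l rose by 1.26 in v-Src cells and by 0.67 in STAT3-C cells, and the antiproliferative gene Tob1 rose by 1.48 in STAT3-C cells.

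Known targets outside the Id family were counted too. Of 17 genes that TGF-beta induces in fibroblasts, v-Src cells had 4 higher and 10 lower, and STAT3-C cells 4 higher and 8 lower, and their median log2 fold change was -1.24 and -0.40. Postn, the matrix protein periostin, fell by 5.90 in v-Src cells and by 6.25 in STAT3-C cells (limma adjusted p = 1.71e-06 and 1.81e-07), and Acta2, smooth muscle actin, by 5.08 and 5.21 (2.37e-06 and 2.77e-07). Tgfbi, Snai1 and Timp1 rose in both lines. Of 11 genes known to be induced by BMPs, among them Msx1, Msx2, Hey1 and Dlx5, 0 passed in any comparison. At an unadjusted p under 0.05 in limma 2 of the 11 differed in v-Src cells, 3 in STAT3-C cells and 1 between the transfected lines. SAM called 0 in each. Neither test could call any of the 11, because none reached the 1.5-fold change that a call also needed. Their log2 fold changes lay between -0.39 and 0.25 with v-Src and between -0.53 and 0.49 with STAT3-C.

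Markers of other cell types moved with the transfected lines in part. Of 8 leukocyte and macrophage markers, Cd14 and Lyz2 were higher in v-Src cells and these and Cd68 in STAT3-C cells. The summed level of the 8 on the log2 scale was 10.88 to 11.15 in v-Src, 10.94 to 11.39 in STAT3-C and 9.873 to 9.948 in control arrays, and the pan-leukocyte marker Ptprc was near background everywhere (4.08 to 4.12 in v-Src, 4.05 to 4.68 in STAT3-C and 3.96 to 4.04 in control arrays). Of 5 mesothelial markers Msln was higher in both lines, with a summed level of 9.951 to 10.43 in v-Src, 10.91 to 11.63 in STAT3-C and 7.753 to 7.824 in control arrays, while Wt1 stayed at 4.96 to 5.15, 4.67 to 4.92 and 4.81 to 4.87 in the same order. Of 10 epithelial markers 0 passed against control by limma or SAM, and none reached the 1.5-fold change that either call needed. At an unadjusted p under 0.05 in limma 4 of the 10 differed with v-Src and 3 with STAT3-C. Cdh1 was at 4.45 to 4.52 in v-Src, 4.50 to 4.79 in STAT3-C and 4.17 to 4.42 in control arrays, although Epcam, another of them, was at 9.66 to 9.80, 9.0 to 9.11 and 9.16 to 9.49 in the same order. The part of these markers in the changes of Tgfb1, Bmp4 and the Id genes was not tested.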

How the data were processed

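Total RNA of 3 Balb/c-3T3 lines, 3 arrays a line, was hybridized to Affymetrix mouse arrays by the authors, whose deposited values are log2 expression from RMA. By the methods, RMA was run on the control arrays together with v-Src and separately with STAT3-C arrays, and from which run the single column of each control array was taken is not stated. In the direct comparison the run may therefore coincide with the line. The same may hold for control cells against the transfected line that was not in their run. Neither was tested. The array annotation gave 34945 probesets 1 symbol, 932 several and 9160 none, and 64 control probesets were left out. A gene was represented by its brightest single-symbol probeset, by the mean of all 9 arrays. Arrays have no sequencing depth, and precision is limited by their number: with 3 against 3, exact permutation p-values stop at 0.1.

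Each comparison was fitted on its 6 arrays in R 4.3.3 with limma 3.58.1 (lmFit, eBayes), with Benjamini-Hochberg adjustment over 45037 probesets and no filter. The threshold was an adjusted p under 0.05 with a fold of 1.5 or more. SAM used all 20 groupings of the 6 arrays, a q under 5% and the same fold threshold. In simulated data limma recovered 75%, 68% and 81% of 2-fold and 96%, 97% and 98% of 4-fold changes, for v-Src and STAT3-C against control and for the direct comparison in turn, with 0, 4 and 2 false calls of 45037. These simulated data had independent noise and far fewer changed probesets than were called in the real arrays, so these rates need not hold there. Plots used python 3.11.15 with matplotlib 3.10.9.

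The members and gene lists were chosen with earlier results of these data known. By rule, any member may be named, values of every array are given for those changed 2-fold or more, and the 2 members of each other list with the largest called change in a line are named. Smad4, Inhbb and other genes named beside these were chosen after their values were seen. Listed genes without a single-symbol probeset are not analysed here. No pairing of STAT3-C and control arrays by replicate number was seen, and the main fits were unpaired. Alternatives were another normalization, filter, fold, adjusted p, gene summary, test or eBayes setting, all 9 arrays in 1 fit, the replicate block and leaving out each array.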

Additional observations from a re-analysis of the deposited data

Results flagged for a closer look

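Of the 42 genes, 12 differed between the v-Src and STAT3-C lines by limma's test of the difference itself, past both thresholds of the report. Over all genes 4.84% were higher and 6.83% lower in the v-Src line by the same thresholds. The v-Src line was higher, on the log2 scale, in Tgfb1 by 0.75, Tgfbr1 by 2.17, Smurf1 by 1.11 and Id1 by 0.91. It was lower in Grem1 (log2 fold change -2.40), Fst (-1.79), Fstl1 (-1.26), Id3 (-1.20), Id2 (-0.93), Bmpr1a (-0.64), Smad6 (-0.61) and Acvrl1 (-0.59). Of these, Fst, Fstl1, Grem1, Tgfb1, Tgfbr1 and Smurf1 passed whichever array was left out. Groups of 3 arrays were not tested for outlying arrays.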

How the results depend on the processing

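Numbers of genes called and calls of single genes were recomputed under each alternative. Shares over all genes were computed at the main settings alone. Whether a change in a count below is particular to the members was therefore not tested. With all 9 arrays in 1 fit the direct-comparison call of Id1 was lost (adjusted p = 0.0666) and Ltbp2 passed there (-1.15, adjusted p = 0.0355). The filter to probesets above the median level also added Ltbp2 in that comparison (adjusted p = 0.0494). SAM, quantile normalization, median centring, the filter to probesets above the median level and eBayes with trend and robust kept every count within 1.5 times; SAM added Skil with v-Src and Ltbp2 in the direct comparison, quantile normalization lost Bmpr2 (-0.57) with v-Src and median centring lost Eng (0.58) with STAT3-C. With a fold of at least 2, the members lower with v-Src were 2 (8 at 1.5-fold) and those lower in STAT3-C cells 1 (6), while the direct comparison had 2 higher (4) and 4 lower (8). At an adjusted p under 0.01 the count lower in that comparison was 5, and with a gene taken as the mean over its probesets it was also 5. That mean turned the sign of Inhbb (-1.01) and Smad1 (-0.60) with STAT3-C and of Bmpr1a in the direct comparison (0.11); each gene has probesets that differ. Leaving out each array in turn gave 7 to 8 higher and 6 to 8 lower with v-Src, 7 to 10 and 4 to 6 with STAT3-C, and 3 to 4 and 3 to 11 in the direct comparison. Other causes were not tested. Deviations of same-numbered STAT3-C and control arrays correlated at -0.093 to 0.065, and those of differently numbered arrays at -0.11 to 0.071. These correlations show no pairing by number and cannot exclude one. With the replicate block 8 members were higher and 6 lower, as without it, and no call changed. No paired analysis was possible for v-Src because its arrays share fewer than 2 numbers with the other lines.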
